A study of Mus musculus with 6 samples.

Results

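The genes described here are 36 genes of glucose breakdown, the pentose phosphate pathway, amino acid uptake and the linked glutamine, methyl and one-carbon steps, out of 32879 genes with a transcript record in the count data. They were chosen by name for their place in these pathways, with earlier results of these data known. They hold 18 genes of glycolysis, 6 of the pentose phosphate pathway and 4 of amino acid uptake. The other 8 are genes of glutamine synthesis, the methyl cycle, one-carbon metabolism and serine synthesis. RNA was sequenced from peritoneal macrophages (PMs), sorted as F4/80+ CD11b high cells of the peritoneal fluid, and each mouse gave 1 library. The 3 control mice were females of the non-autoimmune New Zealand white × BALB/c F1 cross, 33, 33 and 30 weeks old. The 3 diseased-BWF1 mice were females of the lupus-prone New Zealand black × New Zealand white F1 cross, 31, 31 and 34 weeks old, and were classed as diseased by high antibody titers to double-stranded DNA and severe proteinuria. No transgene or treatment is given for either group. The groups differ in 1 parental strain as well as in disease, so the effects of strain and of disease cannot be told apart.

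Macrophages take up glucose through carriers such as Slc2a1 and break it down by glycolysis to pyruvate and lactate, which yields ATP quickly, and this flux is known to rise when macrophages are activated. The pentose phosphate pathway branches off from glucose 6-phosphate and supplies NADPH, used by the oxidative burst and to keep glutathione reduced, and ribose for nucleotides. Amino acid carriers bring in glutamine, leucine and cystine, while serine and the folate and methionine cycles supply one-carbon units for nucleotides and methyl groups for methylation.

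The libraries held 3629901 to 5003360 counts, of which 3376669 to 4604336 lay on the genes of the gene table. Scaled to these sums on genes, 3 counts corresponded to 0.652 to 0.888 CPM (a gene's count scaled to a fixed library size), a floor for counting error alone, since PCR copies of a fragment are not separate molecules. Of the 8 PM markers none was at 0 in any mouse; Adgre1, which encodes F4/80, had 8094 to 8522 normalized counts in control PMs and 7053 to 7767 in diseased-BWF1 PMs, and Itgam, which encodes CD11b, 20721 to 26836 against 24547 to 27699. None of the 8 was called, but 6 had a log2 fold change below 0 (median -0.32), and Adgre1, Timd4, Icam2 and Lyz2 were lower in every diseased-BWF1 mouse than in every control mouse. Timd4 and Icam2, markers of resident PMs, had log2 fold changes of -0.53 and -0.55 (edgeR adjusted p = 0.334 and 0.198). The 5 B cell markers reported here together had 1.33 to 6.52 CPM per mouse, and the 5 T cell markers 0 to 3.33. The summed level of the 5 monocyte markers reported here, nearly all of it Fn1, was 42006 to 64841 CPM in control PMs and 65682 to 70652 CPM in diseased-BWF1 PMs. These ranges did not overlap, but in normalized counts Fn1 did, at 162121 to 254364 against 248219 to 263890. Of these 5 markers, Ccr2 and Fn1 had enough counts to be tested, with log2 fold changes of 1.43 (standard error 0.69, edgeR adjusted p = 0.441) and 0.31 (standard error 0.21, edgeR adjusted p = 0.587). The defining monocyte marker Ly6c2 was at 0 in 5 of the 6 mice and at 0.828 normalized counts in the other. The summed level of the monocyte markers thus follows Fn1 and does not give a share of monocytes. In these bulk samples a lower share of some cells and less RNA per cell cannot be told apart.

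The clearest difference among the 36 genes was in amino acid uptake. Slc1a5, the carrier of glutamine and other neutral amino acids, was 3.36-fold higher in diseased-BWF1 PMs, while Slc3a2, the shared heavy chain of several amino acid carriers, had a log2 fold change of -0.12. The groups overlapped for most genes of glycolysis and of the pentose phosphate pathway. Of the 36 genes, 34 had enough counts to be tested, and 2 of them, Slc1a5 and Ahcy, were called higher while 0 were called lower. A gene was called at a Benjamini-Hochberg adjusted p under 0.05 over the 10505 genes tested with edgeR (quasi-likelihood) and a fold change of at least 1.5. In that test 1.22% of all genes were called, 0.400% as higher and 0.819% as lower. The 36 genes were chosen with earlier results of these data known, so the shares over all genes are not an independent comparison. Log2 fold changes were above 0 for 24 of the 34 genes and below 0 for 10, with a median of 0.15 against 0.01 over all genes tested. Of all 10505 genes tested, 5343 were above 0 and 5162 below. Ahcy, Mthfd2 and Slc7a5 were low in control PMs and passed the count filter only through the diseased-BWF1 mice. For them the filter itself favoured a fold change above 0 and groups that do not overlap. An unadjusted p under 0.05 was found for 8 of the 34 genes and for 1385 of all 10505. For 8 of the 34 genes all diseased-BWF1 mice were above all control mice and for 1, Taldo1, below, where 9.81% and 11.1% of all tested genes did so and 20.9% in either direction. The DESeq2 package, run as an alternative, called 3 of the genes, Slc1a5, Ahcy and Mthfd2, and 3.05% of the 12141 genes to which it gave an adjusted p. It was run on all genes with any count, so the package and the filter on genes differ together.

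**Figure D1:**
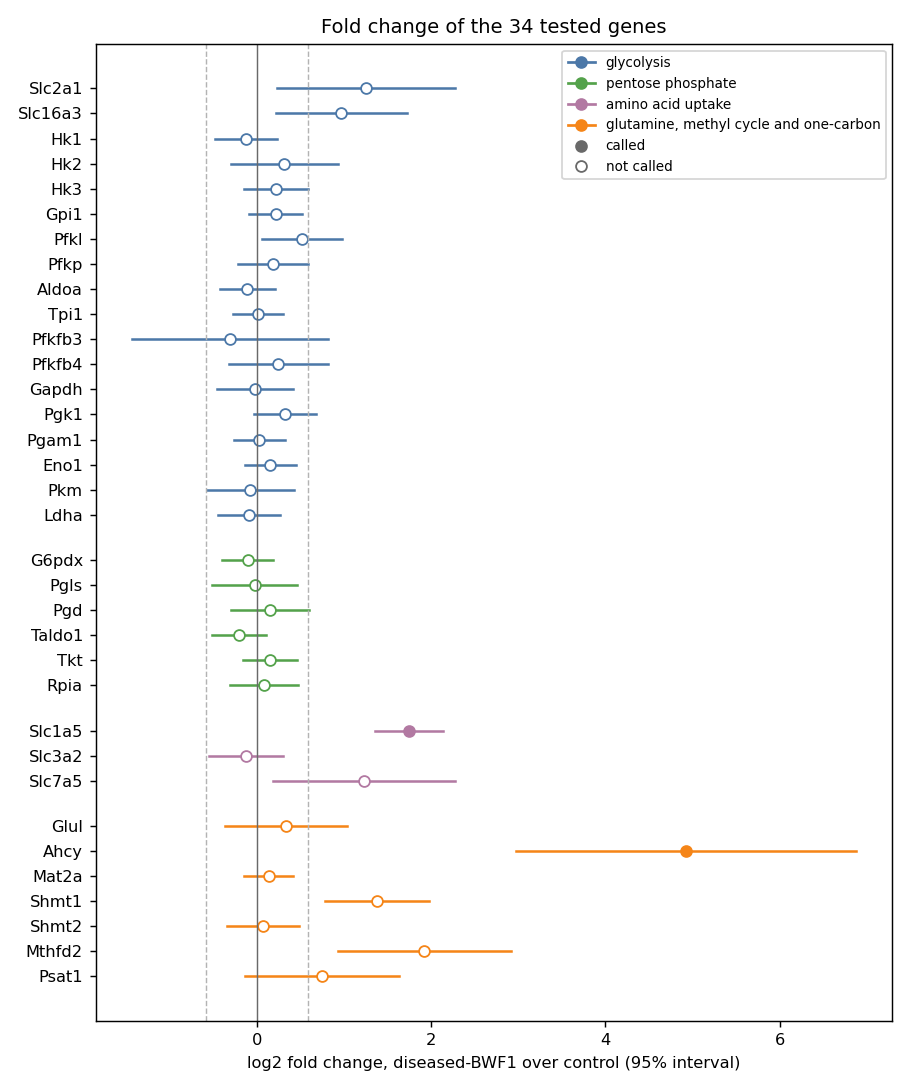
Log2 fold change of diseased-BWF1 over control PMs for the 34 tested genes, grouped by pathway (colour). Points are edgeR estimates and lines their 95% intervals, filled points mark the called genes Slc1a5 and Ahcy, and dashed lines mark a fold change of 1.5. Most glycolysis and pentose phosphate genes lie near 0, while the intervals of Slc2a1, Slc16a3 and Pfkl lie above 0 and that of Pfkfb3 is wide.

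The plot of fold changes shows the pathways side by side. The median log2 fold change was 0.17 over the 18 glycolysis genes, 0.03 over the 6 pentose phosphate genes, 1.24 over the 3 tested uptake genes and 0.75 over the 7 tested genes of the glutamine, methyl cycle and one-carbon group, against 0.01 over all genes. In the last group all 7 tested genes had a log2 fold change above 0, from 0.07 for Shmt2 to 4.92 for Ahcy, although only Ahcy was called. Ahcy and Mthfd2 in this group, and Slc7a5 among the uptake genes, passed the count filter only through the diseased-BWF1 mice. Their direction was thus favoured by the filter, and the medians and signs of these small groups are a description only.

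Among the amino acid carriers, Slc1a5 (chromosome 7, 16781334 to 16798274, GRCm38.p6) had 115, 143.2 and 118.9 normalized counts in control PMs and 395.3, 504.8 and 371.8 in diseased-BWF1 PMs. The groups did not overlap, and the lowest diseased-BWF1 mouse was well above the highest control mouse. The means were 125.7 ± 15.3 and 424 ± 71.0 (SD, n = 3), a log2 fold change of 1.75 (standard error 0.17, edgeR adjusted p = 0.00791). The exact two-sided permutation test gave p = 0.1, the smallest value that 3 mice against 3 can give. Slc1a5 was called in each of the 6 fits that left out 1 mouse, with log2 fold changes from 1.61 to 1.85 and edgeR adjusted p from 0.0191 to 0.0398. Its curated main record held 85.6% of the gene's counts in control PMs and 90.6% in diseased-BWF1 PMs, and none of its 75-base sequences, the length of a read, occurs in another annotated gene. The lower values of 4 of the 8 PM markers in diseased-BWF1 mice, given above, went along with the higher Slc1a5, and their part in the results for the 36 genes was not tested.

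Slc7a5, the light chain that forms the large neutral amino acid carrier together with Slc3a2, had 14.9, 23.7 and 8.0 normalized counts in control PMs and 31.3, 53.8 and 26.2 in diseased-BWF1 PMs. Every diseased-BWF1 mouse was above every control mouse, but the lowest diseased-BWF1 mouse and the highest control mouse were only a few counts apart. The log2 fold change was 1.24 (standard error 0.45), and it was not called (edgeR adjusted p = 0.293). Its partner Slc3a2 had 352.5, 397.7 and 469.8 normalized counts in control PMs against 295.8, 408.3 and 423.2, and the groups overlapped. The 95% interval of its log2 fold change was -0.55 to 0.30. Slc7a11, the light chain of the cystine and glutamate exchanger, had 0, 7 and 1 raw counts in control PMs and 6, 2 and 4 in diseased-BWF1 PMs, too few to be tested and with no difference detectable at this depth.

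Per length, the order of the 3 carriers was the same in both groups. Slc3a2 had 50.6 ± 6.38 CPM per kilobase in control PMs, Slc1a5 10.04 ± 1.70 and Slc7a5 1.14 ± 0.56, and the ranges of neighbours in that order did not overlap. In diseased-BWF1 mice Slc1a5 reached 36.8 ± 5.93 on this scale and its range overlapped that of Slc3a2, at 47.4 ± 9.47, while Slc7a5 stayed lowest at 2.79 ± 1.07.

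**Figure D2:**
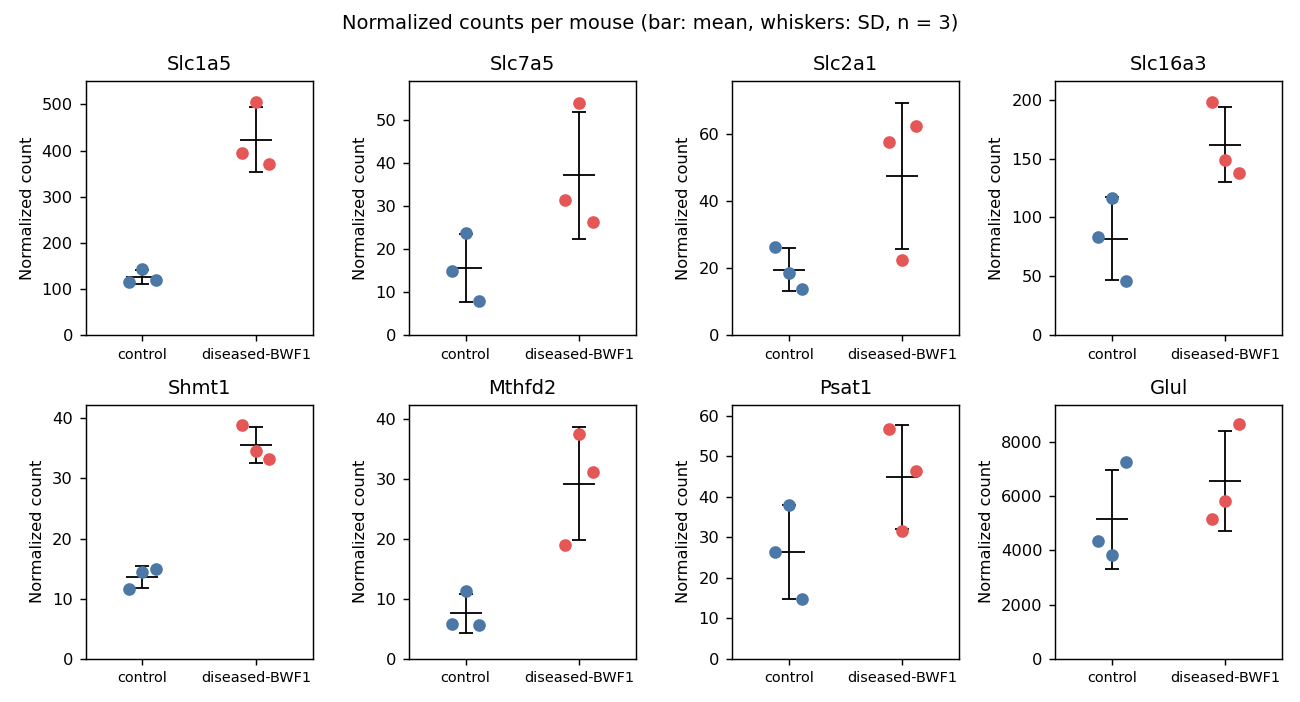
Normalized counts of 8 genes in each mouse (points), with the mean and SD of each group of 3 mice; the vertical axes start at 0 and differ between panels. The groups are apart for Slc1a5, Slc7a5, Slc16a3, Shmt1 and Mthfd2 and overlap for Slc2a1, Psat1 and Glul.

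In the one-carbon steps, Shmt1, the cytosolic serine hydroxymethyltransferase that moves a carbon from serine to folate, had 11.6, 14.4 and 14.9 normalized counts in control PMs and 38.9, 34.5 and 33.3 in diseased-BWF1 PMs. The groups did not overlap, as the points for Shmt1 show, at 13.6 ± 1.78 and 35.5 ± 2.94 (SD, n = 3). Control PMs had only 14, 14 and 13 raw counts, at which counting error alone is larger than the spread seen, so this spread understates the uncertainty. The log2 fold change was 1.38 (standard error 0.25), just short of a call (edgeR adjusted p = 0.0587, DESeq2 adjusted p = 0.0508), and it was called (adjusted p = 0.0386) when only genes with at least 10 counts in every library were tested. With 1 mouse left out it was called in none of the 6 fits (edgeR adjusted p from 0.109 to 0.197). A predicted record held 78.05% of its counts in control PMs and 94.4% in diseased-BWF1 PMs. The difference lay on that record, which was not called when tested on its own (edgeR adjusted p = 0.758). The curated record had 9, 0 and 0 raw counts in control PMs and 6, 0 and 0 in diseased-BWF1 PMs. Its mitochondrial counterpart Shmt2 had 60.6 to 64.9 normalized counts in control PMs and 56.4 to 75.8 in diseased-BWF1 PMs, with overlapping groups and a log2 fold change interval of -0.34 to 0.48. The difference between the changes of Shmt1 and Shmt2 was not tested.

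Mthfd2, the mitochondrial enzyme of the folate pathway that oxidizes methylene-tetrahydrofolate, had 5.79, 11.3 and 5.71 normalized counts in control PMs and 19.0, 37.6 and 31.2 in diseased-BWF1 PMs. All diseased-BWF1 mice were higher, from a low level in control PMs. Its log2 fold change was 1.92 (standard error 0.42). It was not called with edgeR (adjusted p = 0.0944) but was with DESeq2 (adjusted p = 0.0384).

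The serine synthesis enzymes were low. Psat1, the aminotransferase of this route, had 26.5, 38.1 and 14.9 normalized counts in control PMs and 56.9, 31.5 and 46.4 in diseased-BWF1 PMs. The groups overlapped, and the log2 fold change of 0.75 was not called (edgeR adjusted p = 0.465). Phgdh, which catalyses the first step, had 2, 0 and 1 raw counts against 3, 7 and 4 and was too low to be tested. The ratio of its pooled CPM was 4.82, with an exact 95% counting interval of 1.35 to 26.2 that does not include the spread between mice.

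Glul, glutamine synthetase, was the member with the most counts, at 4354, 3840 and 7251 normalized counts in control PMs and 5174, 5844 and 8668 in diseased-BWF1 PMs. The groups overlapped, and 1 mouse of each group was well above the others. Its log2 fold change of 0.34 (standard error 0.30) was not called (edgeR adjusted p = 0.691). Mat2a, which makes S-adenosylmethionine, had 494.6 to 556.6 normalized counts in control PMs against 556.2 to 620.9. These ranges overlapped by less than 1 count, and the log2 fold change interval was -0.14 to 0.42.

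Ahcy, S-adenosylhomocysteine hydrolase of the methyl cycle, was the second gene called, and its reading depends on a near-identical copy. It had 0, 3 and 0 raw counts in control PMs and 46, 37 and 20 in diseased-BWF1 PMs. The groups did not overlap, and 2 of the 3 control mice were at 0. The log2 fold change was 4.92 (standard error 0.83, edgeR adjusted p = 0.0455), and the ratio of pooled CPM was 35.5, with an exact 95% counting interval of 11.8 to 174.7. The call was lost in every fit that left out 1 mouse, with log2 fold changes from 4.28 without control replicate 1 to 8.12 without control replicate 2: the edgeR adjusted p was 0.122, 0.0797 and 0.111 without control replicates 1, 2 and 3, and 0.154, 0.128 and 0.0881 without diseased-BWF1 replicates 1, 2 and 3.

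Ahcy has 10 exons on chromosome 2 (155059310 to 155074497, minus strand, GRCm38.p6). Gm4737 is annotated as a protein-coding gene of 1 exon on chromosome 16 (46152985 to 46155077, minus strand). Their GENCODE transcripts aligned over 2083 bases with 6 mismatches and no gap, an identity of 99.7%. Both coding sequences have 1299 bases, and 4 substitutions lie in them: C459T, G474A, C1050T and C1068T, with the Ahcy base first, the position counted from 1 at the first base of the start codon, and the Gm4737 base last. Both windows around these positions are printed because only reads that cover a capital letter can tell the genes apart within the coding sequence; the capitals mark the 4 differing bases. The windows cover coding bases 429 to 504 (Ahcy chr2:155064868-155065553, across an intron that is not shown, and Gm4737 chr16:46154509-46154584) and 1020 to 1098 (Ahcy chr2:155062218-155062296 and Gm4737 chr16:46153915-46153993), 5′ to 3′ on the minus strand.
Ahcy, coding bases 429 to 504: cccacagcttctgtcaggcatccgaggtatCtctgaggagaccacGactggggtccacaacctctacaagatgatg
Gm4737, coding bases 429 to 504: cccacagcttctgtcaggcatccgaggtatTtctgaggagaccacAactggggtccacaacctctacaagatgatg
Ahcy, coding bases 1020 to 1098: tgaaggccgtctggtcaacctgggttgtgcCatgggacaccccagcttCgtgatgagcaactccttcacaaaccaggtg
Gm4737, coding bases 1020 to 1098: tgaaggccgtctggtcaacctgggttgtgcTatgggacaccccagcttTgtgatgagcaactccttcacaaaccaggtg

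Of the 1225 sequences of 75 bases in the Ahcy coding sequence, 1042 (85.1%) also occur in Gm4737. Over the whole annotated Ahcy transcripts, with the parts outside the coding sequence, the share was lower, at 62.5%. The normalized counts of Gm4737 were 108.4, 103.0 and 93.7 in control PMs and 79.6, 102.6 and 96.7 in diseased-BWF1 PMs. Its groups overlapped, and its log2 fold change was -0.14 (edgeR adjusted p = 0.763). Ahcy held 0%, 2.91% and 0% of the counts of both genes in control PMs and 35.4%, 26.8% and 17.2% in diseased-BWF1 PMs. Summed, both genes had 108.4, 106.1 and 93.7 normalized counts in control PMs and 123.2, 140.2 and 116.9 in diseased-BWF1 PMs. The sums still did not overlap, but the log2 fold change was 0.29 and was not called (edgeR adjusted p = 0.456). The sum was chosen after seeing the data. How reads shared by both genes were divided between their records was not tested, and the mice are not of the reference strain C57BL/6J, so bases at which their own copies differ from these sequences were not read.

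**Figure D3:**
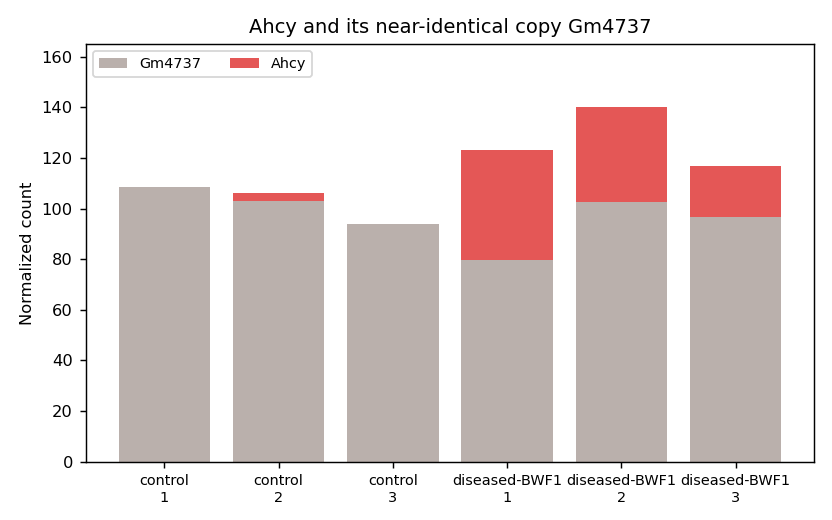
Normalized counts of Ahcy (red) stacked on those of its near-identical copy Gm4737 (grey) in each of the 6 mice. The grey bars are of like height in both groups, and the red part is 0 or near 0 in the 3 control mice and 20.2 to 43.6 in the 3 diseased-BWF1 mice.

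In glycolysis 0 of 18 genes were called, 3 had an unadjusted p under 0.05 (Slc2a1, Slc16a3 and Pfkl), and the transporters at both ends of the pathway had the largest estimates. Slc2a1, the glucose carrier GLUT1, had 26.5, 18.5 and 13.7 normalized counts in control PMs and 57.8, 22.3 and 62.5 in diseased-BWF1 PMs. The diseased-BWF1 mouse of replicate 2 lay within the control range and the other 2 above it. The log2 fold change was 1.25 (standard error 0.44) and was not called (edgeR adjusted p = 0.274). Slc16a3, the lactate exporter MCT4, had 83.6, 116.4 and 45.7 normalized counts against 198.1, 149.3 and 138.0, so that its groups did not overlap. Its log2 fold change of 0.97 (standard error 0.32) was not called either (edgeR adjusted p = 0.252). With curated mRNA records alone the log2 fold change of Slc16a3 was 1.57, also not called (edgeR adjusted p = 0.120).

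The hexokinases phosphorylate glucose. Hk1 had 573.8 to 729.9 normalized counts in control PMs and 520.9 to 669.2 in diseased-BWF1 PMs, Hk2 131.4 to 192.7 against 163.2 to 292.9, and Hk3 323.5 to 416.3 against 393 to 510.9. All of these ranges overlapped, and the log2 fold changes were -0.13, 0.32 and 0.22.

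Among the hexose phosphate steps, Gpi1 and Pfkl had groups that did not overlap. Gpi1, glucose 6-phosphate isomerase, had 1501, 1538 and 1773 normalized counts in control PMs against 1865, 1838 and 1922, with a log2 fold change of 0.22 (edgeR adjusted p = 0.539). Pfkl, the liver-type phosphofructokinase, had 195.3, 307.0 and 217.2 against 325.1, 395.1 and 314.4, a log2 fold change of 0.52 (edgeR adjusted p = 0.317). For both genes the nearest mice of the groups were close to each other. Pfkp, Aldoa and Tpi1 overlapped between groups, with log2 fold changes of 0.19, -0.11 and 0.01, and that of Pfkp was -1.57 with curated mRNA records alone (edgeR adjusted p = 0.392).

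The bifunctional enzymes Pfkfb3 and Pfkfb4 set the level of fructose 2,6-bisphosphate, the activator of phosphofructokinase. Pfkfb3 varied widely between mice, at 273.1, 184.4 and 416.1 normalized counts in control PMs and 99.5, 224.4 and 386.9 in diseased-BWF1 PMs. Its coefficient of variation was 40.1% and 60.8%, and the log2 fold change interval of -1.43 to 0.82 includes a change of 1.5-fold in either direction. Pfkfb4 had 37.7 to 71.1 against 67.5 to 72.1 normalized counts, with overlapping groups.

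**Figure D4:**
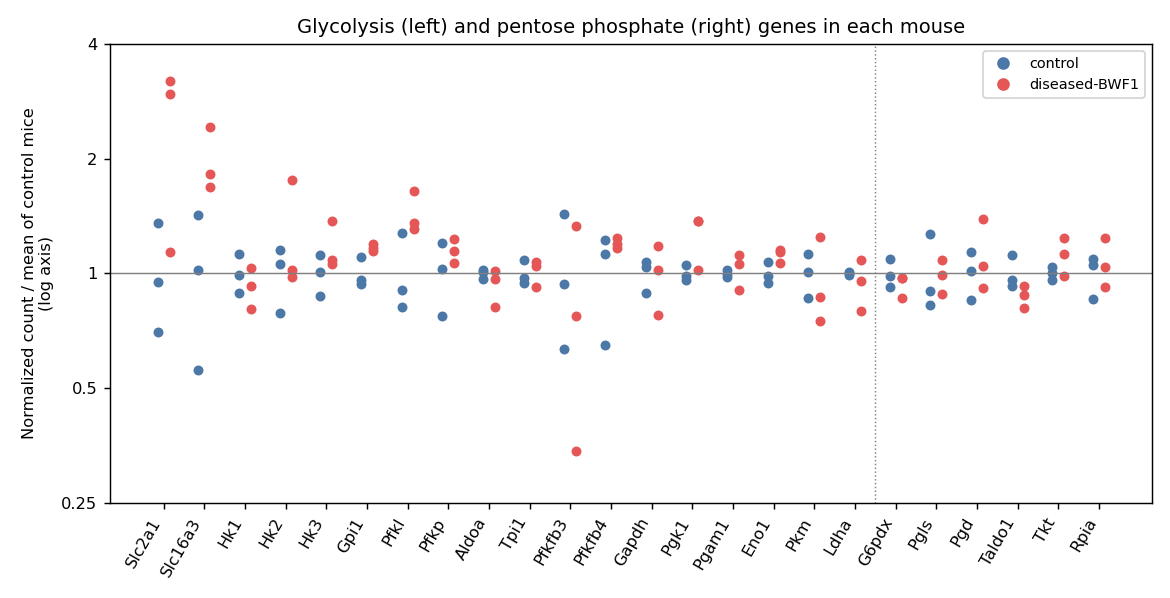
Normalized counts of the 18 glycolysis and 6 pentose phosphate genes in each mouse, divided by the mean of the control mice, on a log axis. Blue points are control and red points diseased-BWF1 mice; the colours mix for most genes, are apart for Slc16a3, Gpi1, Pfkl and Taldo1, and spread most for Slc2a1 and Pfkfb3.

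The enzymes from triose phosphate to lactate were abundant, and on its own counts each of them overlapped between groups. Gapdh had 3375 to 4053 normalized counts in control PMs and 2948 to 4484 in diseased-BWF1 PMs, and Ldha, which makes lactate, had 1617 to 1645 against 1297 to 1773. The diseased-BWF1 mice were on both sides of the control mice for these and for Pgam1 and Pkm. The log2 fold changes of Gapdh, Pgk1, Pgam1, Eno1, Pkm and Ldha were -0.02, 0.32, 0.03, 0.16, -0.07 and -0.09. Of the 24 glycolysis and pentose phosphate genes, 14 had a 95% interval inside 1.5-fold in both directions and 21 inside 2-fold. These widths limit what 3 mice per group can show, and smaller changes were not detectable. Pgk1, Pgam1, Eno1, Gapdh and Pkm have 52.8%, 34.9%, 23.0%, 22.6% and 17.8% of their 75-base sequences in common with other genes, so their counts are less certain. Eno1b, the copy with the most sequence in common with Eno1, had 1370, 1377 and 1245 normalized counts in control PMs and 1773, 1608 and 1546 in diseased-BWF1 PMs. Its groups did not overlap, with a log2 fold change of 0.30 (edgeR adjusted p = 0.382). Summed, Eno1 and Eno1b did not overlap between groups either, and the log2 fold change of 0.22 was not called. How reads shared by Eno1 and Eno1b were divided was not tested.

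Within Gapdh the transcript records differed between groups while the total overlapped. The shorter transcript (1273 bases) had 2676, 2347 and 2502 normalized counts in control PMs and 1020.0, 405.2 and 1351 in diseased-BWF1 PMs. The longer transcript (1420 bases) had 1362, 1569 and 856 against 3433, 2538 and 2488. For neither record did the groups overlap, and the records differed in opposite directions. The shorter one held 66.0%, 59.5% and 74.1% of the gene's counts in control PMs and 22.7%, 13.7% and 34.9% in diseased-BWF1 PMs. The log2 fold changes of the records were -1.45 (standard error 0.43) and 1.16 (standard error 0.27). Neither was called when each record was tested on its own (edgeR adjusted p = 0.524 and 0.305), a test in which 0 of the 62 tested records of these genes and 0.0639% of all 20332 records were called. Only 75 of the 1199 75-base sequences of the shorter transcript and 222 of the 1346 of the longer one are absent from the other, so few reads decide the split. Whether it comes from the transcripts used or from how shared reads were divided was not tested.

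**Figure D5:**
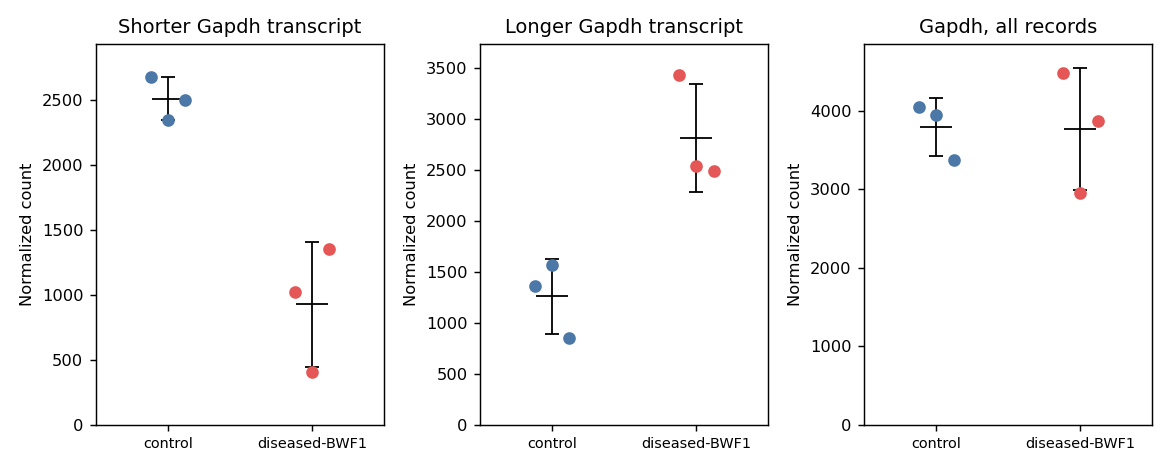
Normalized counts of the shorter and the longer Gapdh transcript record and of all Gapdh records in each mouse (points), with mean and SD (n = 3). The shorter record is lower and the longer higher in all 3 diseased-BWF1 mice, while the total overlaps between groups.

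Per length, the order of the glycolysis genes differed little between groups. The level could be set per length for 13 of the 18 genes, those with a length for at least 80% of their counts, and by their means 9 of the 13 had the same rank in both groups, although the ranges of some neighbours overlapped. Gapdh stood first, at 740.2 ± 69.7 CPM per kilobase in control PMs and 721.9 ± 161.2 in diseased-BWF1 PMs. Ldha, at 265.8 ± 5.23 in control PMs, and Aldoa, at 264.1 ± 11.7, followed and did not differ beyond their spread. Hk3, Pfkl, Hk2 and Slc2a1 were the lowest, at 29.2 ± 2.33, 16.6 ± 3.85, 7.52 ± 2.01 and 1.07 ± 1.07 in control PMs. In 1 control mouse all 18 Slc2a1 counts lay on a predicted record without a length, and its level is 0 on this scale.

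The pentose phosphate genes showed no call, and their log2 fold changes ranged from -0.21 to 0.15. Of the oxidative branch, which makes NADPH, G6pdx had 644.7 to 761.3 normalized counts in control PMs and 602.2 to 679.1 in diseased-BWF1 PMs, Pgls 72.1 to 110.9 against 77.2 to 94.7, and Pgd 590.0 to 787.2 against 635.8 to 962.3. All of these overlapped. In the non-oxidative branch, which links ribose to glycolysis, Taldo1 had 599.9, 579.1 and 697.2 normalized counts in control PMs and 549.8, 506.8 and 578.4 in diseased-BWF1 PMs. The groups were apart by less than 1 count, and the log2 fold change of -0.21 was not called (edgeR adjusted p = 0.564). Tkt and Rpia overlapped, with log2 fold changes of 0.15 and 0.09. By their means all 6 genes kept their rank per length between the groups, although the ranges of several neighbours overlapped (Pgd and G6pdx in control PMs, Taldo1 and Pgd as well as G6pdx and Tkt in diseased-BWF1 PMs, and Pgls and Rpia in both), from Taldo1, at 131.7 ± 13.8 CPM per kilobase in control PMs, to Rpia, at 20.9 ± 2.86.

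Other genes of these pathways were read from wider lists. Of 26 other glycolysis genes 16 were tested and 0 were called, of 14 genes of pyruvate entry 14 and 0, of 10 other pentose phosphate genes 9 and 0, of 27 other amino acid carriers 15 and 0, of 28 other methyl cycle and one-carbon genes 20 and 0, and of 10 genes of glutamine and glutathione 8 and 0. The median log2 fold changes of these lists lay between -0.16 and 0.24. The lowest, -0.16, was that of the other amino acid carriers, with 6 log2 fold changes above 0 and 9 below. For the other methyl cycle and one-carbon genes the median was -0.00074, with 10 above 0 and 10 below. The higher medians of the uptake and one-carbon members were thus not seen in the wider lists of these pathways. The arginine and lysine carrier Slc7a1 had 27.3, 54.6 and 21.7 normalized counts in control PMs and 90.1, 148.3 and 94.7 in diseased-BWF1 PMs, with no overlap. Its log2 fold change was 1.67, and it was called by DESeq2 (adjusted p = 0.00396) but not by edgeR (adjusted p = 0.0944). The lysosomal amino acid carrier Slc36a1 went the other way, with a log2 fold change of -0.93, and was likewise called by DESeq2 alone (adjusted p = 0.0086, edgeR adjusted p = 0.0768). Prps2, which makes the ribose donor of nucleotide synthesis, had a log2 fold change of 0.88 (edgeR adjusted p = 0.116). Fbp1, a gluconeogenic enzyme that opposes phosphofructokinase, had one of -1.59 (edgeR adjusted p = 0.275), and Pdk1, which inhibits pyruvate dehydrogenase, one of -0.72 (edgeR adjusted p = 0.259). In the same lists Pgam2, Eno3 and Pdk4 went the other way, with log2 fold changes of 1.16, 0.69 and 1.00 (edgeR adjusted p = 0.257, 0.494 and 0.474). Mpc1 had one of -0.22 (edgeR adjusted p = 0.556).

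Of 10 transcription factors known to act on these pathways, Epas1 was the only one called. Epas1 encodes HIF-2 alpha, a hypoxia-inducible factor. It had 774.6, 1081 and 829.8 normalized counts in control PMs and 203.8, 255.9 and 299.3 in diseased-BWF1 PMs. The groups were far apart, with a log2 fold change of -1.83 (standard error 0.20, edgeR adjusted p = 0.0117). The call was lost without diseased-BWF1 replicate 1 (edgeR adjusted p = 0.0589) and without diseased-BWF1 replicate 2 (edgeR adjusted p = 0.0514). Hif1a, its relative with known glycolytic targets, had a log2 fold change of 0.06, Myc one of 0.22 and Atf4, which drives serine synthesis and amino acid carriers, one of 0.27, and none of these was called.

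The promoters of these genes were searched for short motifs in the 250 bases before the start sites at hand on GRCm38.p6, which covered 34 of the 36 genes. Not every annotated start was searched: the genes Slc16a3 and Ldha begin before their windows, at chr11:120948484 and chr7:46842274. These 34 genes have 44 windows, since some have more than 1 start site. ACGTG, the core of the hypoxia response element, was found on either strand in 13 of the 44 windows (29.5%), which belong to 11 genes, and in 16.6% of all 32851 windows. CACGTG, the E-box bound by Myc and related factors, which contains ACGTG, was found in 2 of the 44 (4.55%) and in 6.02% of all, and TGATGNAA, part of the element bound by Atf4, in 1 (2.27%) and in 3.45%. The window searched for Slc16a3 and 1 of the 2 searched for Ldha are shown because they belong to the export and the making of lactate, hold these motifs (in capitals), and differ in what was measured, with groups apart for Slc16a3 and overlapping for Ldha. They are chr11:120948817-120949066 and chr7:46845554-46845803, both on the plus strand and 5′ to 3′. The other Ldha window, chr7:46846832-46847081, holds none of the 3 motifs. A match is a description of the letters and not a site of binding.
Slc16a3: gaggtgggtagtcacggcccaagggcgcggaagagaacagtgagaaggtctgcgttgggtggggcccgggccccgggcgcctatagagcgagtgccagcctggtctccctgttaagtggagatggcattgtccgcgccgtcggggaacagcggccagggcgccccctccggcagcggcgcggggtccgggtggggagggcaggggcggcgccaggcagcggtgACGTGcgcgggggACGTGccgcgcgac
Ldha: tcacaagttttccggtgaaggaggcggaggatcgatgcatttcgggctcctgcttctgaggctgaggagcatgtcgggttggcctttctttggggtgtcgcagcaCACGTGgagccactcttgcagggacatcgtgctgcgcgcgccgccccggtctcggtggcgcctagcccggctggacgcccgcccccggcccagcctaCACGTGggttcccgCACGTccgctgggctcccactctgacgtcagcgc

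Of the 8 genes whose diseased-BWF1 mice were all higher, 6 had a promoter window, and these 6 had none of the 3 motifs in common. Slc16a3 holds ACGTG 2 times, while the windows of Gpi1, Pfkl, Ahcy, Shmt1 and Mthfd2 hold none of the 3 motifs, and no window was at hand for Slc1a5 and Slc7a5.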

How the data were processed

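RNA of sorted PMs was sequenced by the authors (KAPA Stranded mRNA-Seq libraries, MiSeq, paired 75-base reads), with 1 library from each of 6 mice. The deposited values are estimated counts, whole numbers per RefSeq transcript record and not normalized by the authors, for 107193 records per mouse. The submitters' processing notes name Salmon 0.8.0, DESeq2 and GRCm38.p6, without saying what each was used for.

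Records were matched by accession to the RefSeq gene table of GRCm38.p6 (45754 with the same version, 40712 with another, 20727 unmatched and left out) and summed to 32879 genes. The sums held 3376669 to 4604336 counts per mouse. Genes were filtered with filterByExpr, scaled with TMM and tested with the quasi-likelihood test of edgeR 4.0.16 in R 4.3.3, with Benjamini-Hochberg adjustment over 10505 genes. Normalized counts used the size factors of DESeq2 1.42.0, and errors are SDs over 3 mice. An exact two-sided permutation test of 3 mice against 3 cannot give a p below 0.1. The code was tested on simulated data.

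The 36 genes and all lists were chosen with earlier results of these data known. Slc1a5, Slc16a3 and Ahcy are also listed by the study as upregulated, from these same libraries, which is not independent evidence. Slc16a3 differs from that list in that it was called here neither by edgeR nor by DESeq2 (adjusted p = 0.252 and 0.139). Named were all 36 genes, and from each wider list the called genes and genes among the 3 with the smallest p; Hif1a, Myc and the markers were named after their values were seen. The B cell and monocyte marker lists each held 1 more gene, which is not reported here, so their counts and sums do not describe the whole lists. Levels per length used GENCODE vM21 transcript lengths, available for at least 80% of the counts of 29 genes. Shared 75-base sequences were counted in GENCODE vM21 transcripts.

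The alternatives were a replicate block, DESeq2 on all genes with any count, age in the model, RLE factors, scaling by library totals only, robust dispersion, no filter on counts or a filter of 10 counts in all 6 libraries, curated mRNA records alone, single records, no fold threshold, and leaving out each mouse. Summing near-identical copies was added after seeing the data.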

Additional observations from a re-analysis of the deposited data

How the results depend on the processing

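The number of genes called was 128, and it was 370 with DESeq2 on all genes with any count. It was 259 with no low count filter, 84 with at least 10 counts in every library, 38 with the replicate block, 16 with curated mRNA records alone, 13 with each transcript record on its own and 21 to 51 with 1 mouse left out. Of the 36 genes, 2 were called (Slc1a5 and Ahcy), and 1 (Slc1a5) with the replicate block, with age as a covariate, with curated mRNA records alone, with near-identical copies summed and in each of the 6 fits that left out 1 mouse (range 1 to 1), while 0 records of these genes were called on their own. Ahcy was called in none of those fits (log2 fold change 4.28 to 8.12 with 1 mouse left out). Same-numbered mice are different animals and were not treated as pairs. Their deviations from the group means correlated at 0.117, 0.00556 and 0.157. Differently numbered mice were not compared in this way, so a batch shared by mice of the same number was not tested. The replicate block changed no call of the 36 genes other than that of Ahcy. The direction reversed for Hk1 (0.15) and Pfkp (-1.57) with curated mRNA records alone, for Tpi1 (-0.0038) with no low count filter, and for Gapdh (0.031) and Pgls (0.022) with library totals only. With 1 mouse left out, log2 fold changes crossed 0 for Hk2 (-0.012 to 0.47), Tpi1 (-0.034 to 0.082), Pfkfb3 (-0.85 to 0.060), Gapdh (-0.16 to 0.14), Pgam1 (-0.036 to 0.12), Pkm (-0.31 to 0.078), Ldha (-0.20 to 0.030), Pgls (-0.14 to 0.19), Pgd (-0.033 to 0.28), Rpia (-0.039 to 0.18), Slc3a2 (-0.22 to 0.022) and Shmt2 (-0.036 to 0.18). The cause of these changes was not tested. Over the 34 tested genes of the 36 and 21 others named by the rule, 527 of 542 values under alternatives that kept all mice had the same direction and side of the threshold, 5 reversed, 6 came to be called and 4 lost the call; of 330 values with 1 mouse left out, these numbers were 300, 22, 0 and 8. Depth limits Slc7a11 and Phgdh, which were too low to be tested.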
